A study of Homo sapiens with 4 samples.

Results

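The zinc finger genes of chromosome 19 were taken as all protein-coding genes with a symbol that starts with ZNF and a position on chromosome 19 of the GRCh37 build (hg19). The rule used names and positions only and found 249 members among the 60880 genes of the count files. RNA-Seq reads of these members were compared between LNCaP95, an androgen-independent subline of the LNCaP prostate cancer cell line, and LN95(KO), its derivative made with CRISPR against UGT2B17, which encodes an enzyme that couples androgens to glucuronic acid for removal. There were 2 libraries of LNCaP95 (genotype WT in the labels, replicates 1 and 2) and 2 of LN95(KO) (genotype UGT2B17 KO, replicates 3 and 4). All 4 came from untreated cells in medium with charcoal-stripped serum, which holds little androgen, and poly(A) RNA was sequenced on the DNBseq platform. How many knockout clones were used is not stated, the labels put every library under LN95 while the design text writes LNCaP for the knockout, and nothing says whether replicates were separate cultures, so p-values measure only the spread between these libraries. The comparison asks whether neighbouring zinc finger genes switched together when UGT2B17 was lost.

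ZNF proteins of this kind carry C2H2 zinc fingers, short loops that hold a zinc ion and read DNA bases, usually as a long array. In most of those on chromosome 19 the array follows a KRAB domain, which binds TRIM28 (KAP1), and TRIM28 in turn brings the histone H3 lysine 9 methyltransferase SETDB1 and HP1 proteins that silence the bound DNA. The genes arose by tandem duplication and lie in large clusters, many of their proteins bind transposable elements, and the gene bodies themselves can be packed in heterochromatin. A conserved KRAB A box pattern was found in the coding sequence of 215 members and was not found in 34. The median number of C2H2 fingers per protein was 12.

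Because the members sit side by side and many are close copies, the sequences just before their transcript starts show both how alike neighbours can be and how they differ. The stretches below come from the GRCh37 genome, within the 250 bases before the start of the canonical transcript, 5′ to 3′ on the coding strand, without the bases that are annotated as exon of any gene. Capitals mark CG, the dinucleotide that can be methylated and that reads the same on both strands. The 5 were chosen after their values were seen: ZNF93 had the largest rise among the members, ZNF208 lies in the same cluster and had no read in any library, ZNF585B and ZNF585A are copies of which the first fell most among well-covered members, and ZNF580 fell beside an overlapping gene that was not called.
ZNF93 (chr19:20011505-20011721, + strand): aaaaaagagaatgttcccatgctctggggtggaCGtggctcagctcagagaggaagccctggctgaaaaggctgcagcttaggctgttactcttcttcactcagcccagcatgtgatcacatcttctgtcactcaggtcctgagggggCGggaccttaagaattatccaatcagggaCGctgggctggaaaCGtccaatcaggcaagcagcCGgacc
ZNF208 (chr19:22193752-22193995, - strand): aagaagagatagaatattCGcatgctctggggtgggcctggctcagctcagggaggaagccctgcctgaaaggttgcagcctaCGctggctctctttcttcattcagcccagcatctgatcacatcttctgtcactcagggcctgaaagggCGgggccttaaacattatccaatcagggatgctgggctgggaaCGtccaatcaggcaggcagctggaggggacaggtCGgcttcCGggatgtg
ZNF585B (chr19:37701452-37701688, - strand): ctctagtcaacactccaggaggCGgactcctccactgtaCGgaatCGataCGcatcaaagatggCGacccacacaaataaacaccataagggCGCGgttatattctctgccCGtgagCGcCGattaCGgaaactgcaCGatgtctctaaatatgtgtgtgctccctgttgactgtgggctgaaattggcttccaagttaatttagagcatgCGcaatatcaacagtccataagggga
ZNF585A (chr19:37663644-37663847, - strand): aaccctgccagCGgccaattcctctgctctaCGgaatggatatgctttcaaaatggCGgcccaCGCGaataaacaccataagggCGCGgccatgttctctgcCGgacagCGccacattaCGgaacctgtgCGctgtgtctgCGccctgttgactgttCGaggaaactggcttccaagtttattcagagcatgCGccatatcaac
ZNF580 (chr19:56152118-56152350, + strand): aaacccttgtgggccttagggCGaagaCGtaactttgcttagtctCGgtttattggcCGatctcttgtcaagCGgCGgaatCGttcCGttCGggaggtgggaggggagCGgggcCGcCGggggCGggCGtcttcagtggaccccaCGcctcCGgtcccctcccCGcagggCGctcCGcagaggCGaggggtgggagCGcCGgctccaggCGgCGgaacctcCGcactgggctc

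In a global alignment the ZNF93 and ZNF208 stretches were identical at 88.4% of 216 aligned bases, although ZNF208 had no read in any library; other annotated genes lie over 25.5% of its exon bases. The ZNF585A and ZNF585B stretches were identical at 83.6% of 201 aligned bases, and ZNF93 aligned to ZNF585B, which is not its copy, gave 74.4% of 180. The full 250-base windows held 8 CG in ZNF93, 7 in ZNF208, 13 in ZNF585B, 16 in ZNF585A and 30 in ZNF580. Across 1474 protein-coding genes of chromosome 19 the median window held 16 CG, and 99.1% of windows held at least 1.

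Gene reads per library ran from 17330338 to 18813193. The share of reads without an alignment was 3.85% and 3.96% for LNCaP95 but 8.05% and 7.71% for LN95(KO). UGT2B17, the targeted gene (chr4:69402891-69442131), dropped from 2788 and 2748 reads to 21 and 20 in LN95(KO) (log2 fold change -7.04, SE 0.10). All 8 luminal prostate markers were read in every library, while 3 of 4 leukocyte markers and the matched endothelial marker CDH5 had no read. The summed level of the 4 fibroblast markers ran from 29.5 to 34.5 CPM (counts scaled to a common library size), nearly all of it from COL1A1, with DCN at 0. The 3 basal markers together were at 0.16 CPM in both LNCaP95 libraries and at 1.02 and 1.26 in LN95(KO), with KRT14 called higher (1 and 2 reads against 17 and 20), and the part of other cell types in the results was not tested.

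Few zinc finger genes of chromosome 19 passed 2-fold, and those that did moved in both directions. Of the 249 members, 206 had enough reads to be tested and 43 did not, among them 14 with no read at all. A gene was called when edgeR's quasi-likelihood test with Benjamini-Hochberg adjustment over all 15626 tested genes gave an adjusted p under 0.05 and the fold change was over 2. By this rule 15 members (7.28%) were called, 8 higher and 7 lower in LN95(KO), against a background of 18.0% of all tested genes (8.86% higher and 9.13% lower). Among the other protein-coding genes of chromosome 19, 76 of 697 (10.9%) were called, and among ZNF genes of other chromosomes 15 of 221 (6.79%). The share in ZNF genes elsewhere in the genome was thus near that of the members.

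Without the criterion on fold, 88 members had an adjusted p under 0.05 (42.7%, with 40 higher and 48 lower) against 59.8% of all tested genes, of which 29.8% were higher and 30.1% lower. The median log2 fold change of the 206 members was -0.02 and that of all tested genes -0.01. The standard deviation of the log2 fold changes was 0.61 over the members, 1.21 over all tested genes, 0.92 over other coding genes of chromosome 19 and 0.69 over ZNF genes elsewhere. For 168 members (81.6%) the 95% interval of the fold change lay wholly within 2-fold in either direction, against 68.6% of all tested genes. The CPM of the 2 groups did not overlap for 154 members (74.8%), against 79.8% of all tested genes. No member switched, taking a switch as at most 3 reads in both libraries of a group and at least 30 in both of the other, and this stayed at 0 with a limit of 10 reads, while 0.205% of all tested genes switched on and 0.320% switched off.

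**Figure D1:**
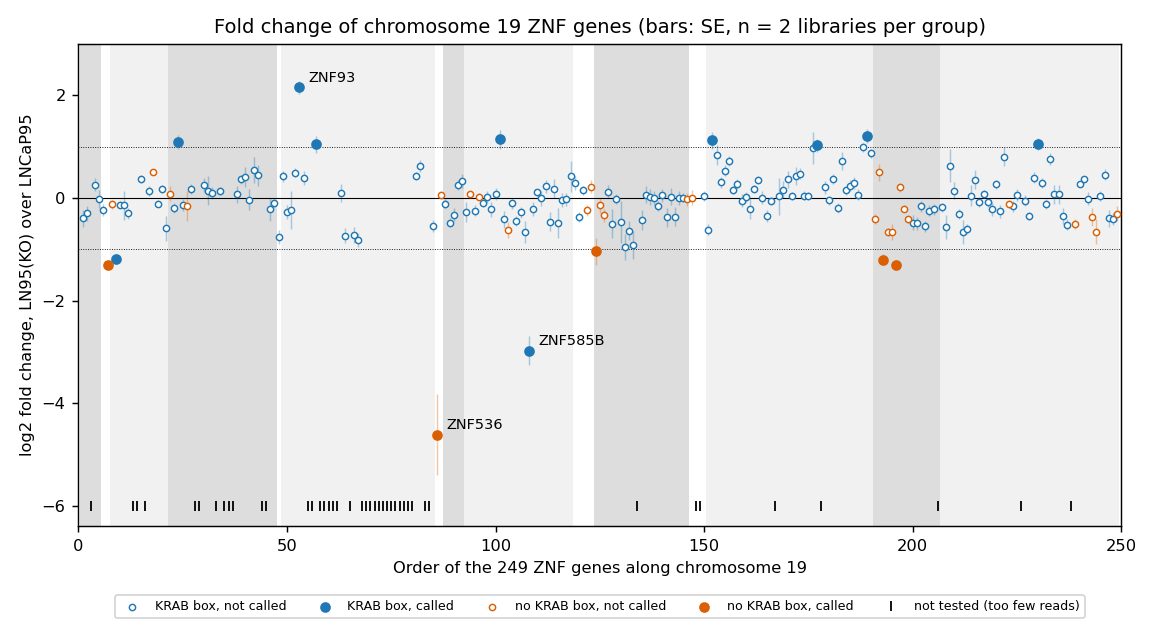
Each point is a tested ZNF gene, placed by its order among the 249 members along chromosome 19, with its log2 fold change (LN95(KO) over LNCaP95) and SE on the vertical axis, and grey bands mark the 10 clusters. Most points lie between the dotted lines at 2-fold, the 15 filled points are called members scattered over the bands, and black ticks mark the 43 members that were not tested.

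ZNF93 had the largest rise. It encodes a KRAB protein known to bind LINE-1 retrotransposons. The gene (ENSG00000184635, chr19:20011722-20074273) had 95 and 82 reads in LNCaP95 against 359 and 414 in LN95(KO), or 4.81 ± 0.47 against 21.5 ± 1.70 CPM (SD, n = 2). Both knockout libraries lay far above both LNCaP95 libraries. The log2 fold change was 2.16 (SE 0.12; edgeR adjusted p = 1.10e-10), and it ran from 2.06 to 2.26 when each library was left out in turn. Of its 100-base windows 0.075% matched another gene's transcripts. ZNF91, a related KRAB gene in the same cluster whose protein is known to restrain SVA retrotransposons, had 541 and 500 reads in LNCaP95 against 654 and 721 in LN95(KO). Its groups did not overlap either, but its log2 fold change of 0.43 (SE 0.08) was much smaller and it was not called.

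ZNF585B, which encodes a KRAB protein with 21 finger patterns and no role that is well established, showed the largest fall among members with more than a few reads. It had 82 and 113 reads in LNCaP95 but 13 and 11 in LN95(KO). The groups were wide apart, at 5.31 ± 1.22 against 0.67 ± 0.09 CPM (SD, n = 2), and the log2 fold change was -2.98 (SE 0.28). Its neighbour and copy ZNF585A (chr19:37597636-37663643), beside it on the same strand, had 78 and 60 reads against 44 and 41 and a log2 fold change of -0.66 (SE 0.21; edgeR adjusted p = 0.013). ZNF585A therefore also fell, by much less. Of the 100-base windows of ZNF585B 17.1% matched another gene's transcripts, most often those of ZNF585A. Another gene also lies over 13.1% of the exon bases of ZNF585B, so part of the reads cannot be assigned with certainty.

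ZNF536, which encodes a repressor of neuronal differentiation and lies alone outside the clusters (chr19:30715798-31204493), had 15 and 16 reads in LNCaP95 but 0 and 1 after the knockout. The groups did not overlap, but the level was close to the detection limit in the knockout. Per effective library size the ratio of LNCaP95 to LN95(KO) was 30.3, with an exact counting interval from 5.05 to 1235. The fitted log2 fold change was -4.61 (SE 0.80) and moved between -6.95 and -3.78 with a library left out.

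The other called members that fell were ZNF580, ZNF358, ZNF524, ZNF558 and ZNF575. From here on, reads are given for LNCaP95 first and LN95(KO) second where the lines are not named. ZNF358 (chr19:7580178-7585911) was among the most abundant members per kilobase of exon and had 957 and 964 reads against 377 and 384 (log2 fold change -1.30, SE 0.07). ZNF580 (chr19:56146382-56154836) had 692 and 657 against 265 and 264 (-1.32, SE 0.08). ZNF524 (chr19:56111388-56114504) had 337 and 355 against 142 and 152 (-1.20, SE 0.11). In each of these the replicates lay close together and the groups well apart. ZNF558 (chr19:8916846-8942990), a KRAB gene known to control mitophagy in neural progenitors, had 433 and 393 reads against 179 and 174 (-1.19, SE 0.10). ZNF575 was the weakest of these calls, with 47 and 46 reads against 24 and 20 (-1.04, SE 0.26), and DESeq2 gave it an adjusted p of 0.092. Other genes lie over 34.1% of the exon bases of ZNF358, 18.9% of those of ZNF524 and 15.6% of those of ZNF580, and reads on more than 1 gene are left out in counting, so these values rest on the rest of the exons.

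The remaining 7 rises were all modest. ZNF813 had 104 and 106 reads against 245 and 229 (log2 fold change 1.21, SE 0.13). ZNF850 had 47 and 47 against 94 and 109 (1.14, SE 0.18). ZNF577 had 75 and 59 against 132 and 154 (1.12, SE 0.17). All 3 encode KRAB proteins, and in each both knockout libraries exceeded both LNCaP95 libraries. ZNF823 (112 and 92 reads against 210 and 213), ZNF552 (145 and 158 against 306 and 309), ZNF737 (63 and 63 against 134 and 121) and ZNF888 (119 and 149 against 250 and 284) had log2 fold changes of 1.08, 1.05, 1.05 and 1.03. These 4, ZNF577 and ZNF575 dropped under 2-fold when a certain library was left out, while their edgeR adjusted p stayed under 0.05. The other 9 called members were called in all 4 of those fits.

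**Figure D2:**
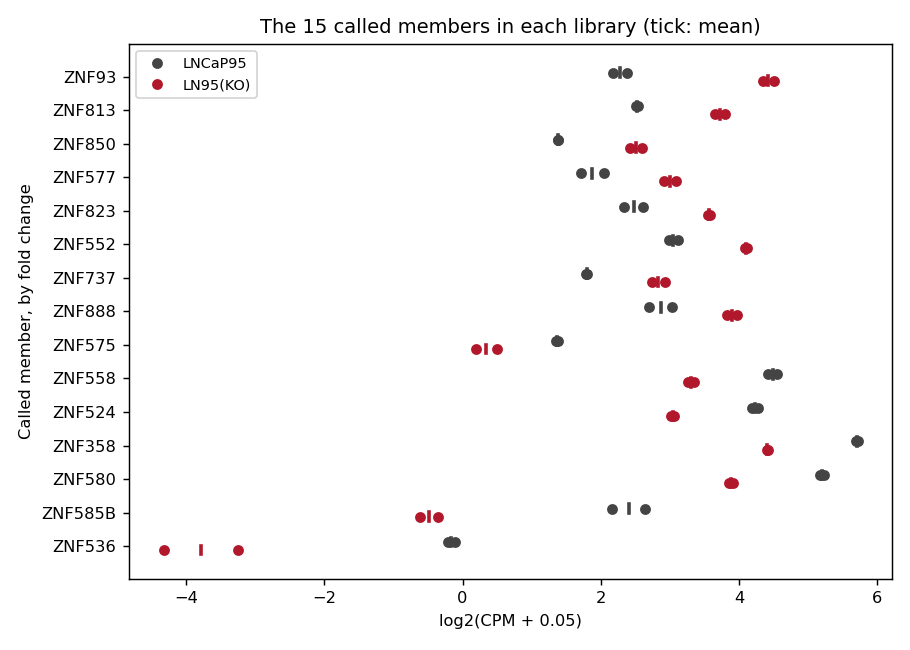
Each row is a called member, ordered by fold change, and each point is the level of a library on the horizontal axis as log2(CPM + 0.05), grey for LNCaP95 and red for LN95(KO), with a tick at the mean of each pair. Grey and red points are separate in all 15 rows, and the distance between them is widest in ZNF536, ZNF585B and ZNF93.

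The other members with a role known from earlier work all stayed under 2-fold. ZNF274, whose protein binds the ends of ZNF genes and recruits SETDB1 there, had 769 and 759 reads against 896 and 903 (log2 fold change 0.27, SE 0.07; edgeR adjusted p = 0.0019). ZNF331, an imprinted gene, had 316 and 334 against 539 and 620 (0.87, SE 0.09), the largest of these below the 2-fold limit. Both rose with no overlap of the groups. ZNF350, also called ZBRK1 and a partner of BRCA1, rose by 0.53 (SE 0.11). ZNF568, known from its mouse counterpart as a repressor of a placental Igf2 transcript, fell by 0.45 on the log2 scale (SE 0.10). ZNF304, linked to silencing of tumour suppressor genes, fell by 0.31 (SE 0.10), and ZNF420, a regulator of p53 also called Apak, fell by 0.28 (SE 0.11; edgeR adjusted p = 0.039). When single libraries were left out, ZNF304 and ZNF420 had adjusted p values up to 0.13 and 0.29, and with library totals as scaling ZNF420 had 0.094. ZNF382, a KRAB gene studied as a tumour suppressor, had 213 and 205 reads against 193 and 220 (0.01, 95% interval -0.21 to 0.24). ZNF224, a repressor of the aldolase A gene, had 81 and 84 against 83 and 85 (0.06, interval -0.27 to 0.38). ZNF808, needed for pancreas development, had 80 and 78 against 81 and 92 (0.16, interval -0.17 to 0.49). None of these 3 passed the test, and their intervals lie within 2-fold.

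Neighbours moved alike only weakly, and since no member switched, none could switch together with a neighbour. Among the 205 pairs of consecutive tested members there was no pair in which both were called, and so no run of called members. With only 15 of the 206 tested members called, this absence says little about neighbours. The log2 fold changes of a member and the next had a Pearson r of 0.22 and a Spearman rho of 0.26 over the 205 pairs, which share members and libraries and are not independent. For members 2 places apart r was 0.09, for 5 places 0.06, for 10 places -0.12 and for 20 places 0.01. Consecutive members had the same sign in 55.1% of pairs, against 49.8% of all 21115 possible pairs. This share did not follow r, as it was 57.8% at 2 places apart, 60.7% at 5, 49.5% at 10 and 48.9% at 20. Consecutive other coding genes of chromosome 19 gave r = 0.03 and 53.4% over 695 pairs, and consecutive ZNF genes of other chromosomes r = 0.07 and 59.7% over 201. Of the latter genes 79 lay above 0 and 142 below, against 99 and 107 of the members. Such an uneven split raises the share with the same sign in pairs at any distance. The median distance between the log2 fold changes of consecutive members was 0.36, against 0.43 over all pairs.

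The r of consecutive pairs was larger where they lay close together. For the 167 consecutive pairs with a gap of at most 100 kb r was 0.35, and for the 184 inside a cluster 0.31. Leaving out ZNF536, which has neighbours over 1 Mb away, gave 0.27, and leaving out the 15 pairs with overlapping exons gave 0.23. Over all pairs, consecutive or not, the sign was shared by 60.5% of those at most 20 kb apart, 55.4% at 20 to 100 kb, 56.1% at 100 to 500 kb, 56.8% at 0.5 to 2 Mb, 44.8% at 2 to 10 Mb and 50.2% beyond 10 Mb. The share thus stayed above that of all pairs out to 2 Mb, about the size of a cluster. Consecutive members on the same strand had r = 0.28 (123 pairs), those transcribed away from each other 0.09 (41 pairs) and those transcribed towards each other 0.09 (41 pairs). In 48 consecutive pairs both members had an adjusted p under 0.05, and 72.9% of these moved the same way, against 49.8% of the 3828 such pairs at any distance.

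**Figure D3:**
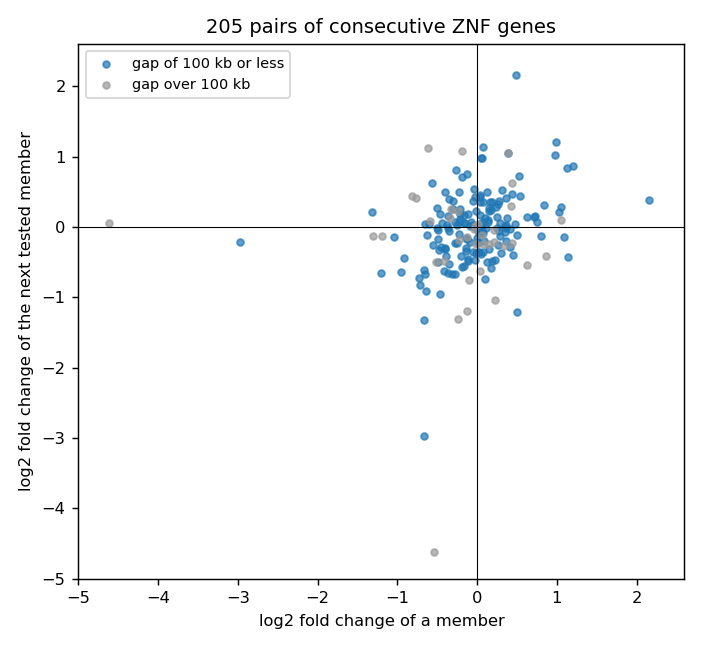
Each point is a pair of consecutive tested ZNF genes, with the log2 fold change of the first on the horizontal and of the next on the vertical axis, blue where the gap is at most 100 kb and grey where it is larger. Most of the 205 points form a round cloud near 0 with a weak upward tilt, and no point lies beyond 2-fold on both axes.

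The 15 called members had 30 tested neighbours, counted for each called member in turn. ZNF414 and ZNF682 each lie between called members and so were counted repeatedly, here and in the counts below. None of the neighbours was called, against 7.28% of the tested members and 18.0% of all tested genes. Of these neighbours 22 moved the same way as the called member, and 16 (53.3%) had an adjusted p under 0.05, 13 of these in the same direction. The share with such a p was 59.8% of all tested genes and 42.7% of the tested members, so that of the neighbours lay between these. The genes named in this and the next paragraph beyond those already given were chosen after their values were seen. ZNF813 lies between ZNF761 (335 and 306 reads in LNCaP95 against 631 and 610 in LN95(KO); log2 fold change 0.99) and ZNF331 (0.87), so that 3 genes in a row rose by about the same amount. ZNF93 lies between ZNF253 (307 and 296 against 414 and 415; 0.49) and ZNF682 (135 and 144 against 164 and 193; 0.39), which rose too, by far less. ZNF823 (1.08) lies between ZNF627 and ZNF441, with log2 fold changes of -0.19 and -0.14 that did not pass the test. ZNF580 overlaps ZNF581 on the same strand, and ZNF581 had 395 and 383 reads against 460 and 419 (log2 fold change 0.21, SE 0.09; edgeR adjusted p = 0.054) beside -1.32 for ZNF580. ZNF577 (1.12) lies after ZNF175, which fell by 0.62 on the log2 scale.

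At an adjusted p under 0.05 and any fold, runs of consecutive tested members moving the same way reached 5 genes. The longest was ZNF577, ZNF649, ZNF613, ZNF350 and ZNF615 (chr19:52308069-52511483), which rose by 0.31 to 1.12. The 4 genes ZNF253, ZNF93, ZNF682 and ZNF737 rose by 0.39 to 2.16, with the untested ZNF90 and ZNF486 lying between ZNF682 and ZNF737. Falling runs of 4 were ZNF568, ZNF420, ZNF585A and ZNF585B (-2.98 to -0.28), ZNF524, ZNF865, ZNF784 and ZNF580 (-1.32 to -0.66; chr19:56111388-56154836), and ZNF787, ZNF444, ZNF582 and ZNF583 (-0.50 to -0.21). In the second of these ZNF865 had 696 and 677 reads against 438 and 413, and ZNF784 had 222 and 183 against 140 and 109. All 4 genes of that run lack a KRAB box pattern.

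Chains of members with gaps under 500 kb and at least 4 members formed 10 clusters, and their median log2 fold changes ran from -0.42 to 0.25. The cluster from ZNF175 to ZNF331 (chr19:52074536-54083523), with 40 members that all carry a KRAB box pattern, was the clearest upward one. Of its 38 tested members 31 lay above 0, 17 (44.7%) had an adjusted p under 0.05 and were higher and 2 (5.26%) were lower, against 29.8% and 30.1% of all tested genes. Its 3 called members (7.89%, against 18.0% of all tested genes) were ZNF577, ZNF888 and ZNF813, all higher. Its median was 0.22, between 0.18 and 0.26 with a library left out and between 0.18 and 0.28 under other scalings, which left 27 to 33 members above 0. The 3 other coding genes tested in that interval had a median of -0.13.

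The cluster from ZNF628 to ZNF835 (chr19:55987984-57183151) moved the other way. Of its 15 tested members 13 lay below 0, 10 (66.7%) had an adjusted p under 0.05 and were lower, against 30.1% of all tested genes, and 1 was higher (ZNF579). The 2 called members (13.3%, against 18.0%) were ZNF524 and ZNF580, both lower. The median was -0.42, and it lay between -0.45 and -0.36 under every scaling tried. Only 6 of its 16 members carry a KRAB box pattern. The 8 other coding genes tested there had a median of -0.48, and 3 of them were called lower. The cluster from ZNF575 to ZNF180 had 16 of 22 tested members below 0, but the number above 0 went from 3 to 10 with the scaling, and the large cluster from ZNF264 to ZNF446 at the end of the long arm had 18 of 41 above 0 with a median of -0.08.

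Many members were hardly expressed in either line, and they lay together. Levels are given here as CPM per kilobase of exon, and the medians over tested members were 2.04 in LNCaP95 and 1.99 in LN95(KO). The highest was ZNF146, a gene with a finger array and no KRAB box, with 2548 and 2552 reads against 2639 and 2609, or 33.5 and 35.2 CPM per kilobase in the 2 lines. In the cluster from ZNF101 to ZNF254 (chr19:19779605-24312770), next to the centromere, only 14 of 37 members were tested, 8 had no read, and the median level was 0.017 CPM per kilobase in LNCaP95 and 0.008 in LN95(KO). In each of the other 9 clusters at least 69.2% of members were tested. Members with few reads lay in unbroken rows, of which the longest held 13 members from ZNF100 to ZNF724 (chr19:21905573-23433196), each with at most 31 reads over the 4 libraries. A second row held 5 members from ZNF626 to ZNF714, each with at most 17 reads.

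**Figure D4:**
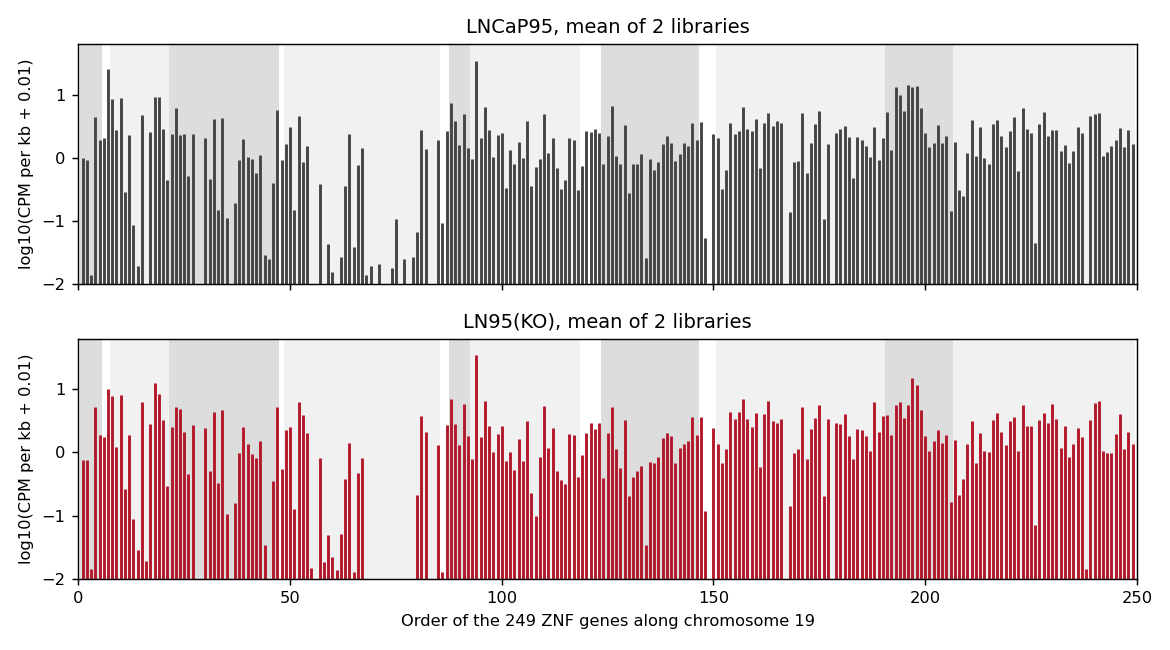
Each line is the mean level of a member in LNCaP95 (upper) or LN95(KO) (lower), as log10(CPM per kilobase of exon + 0.01), in order along chromosome 19, with clusters as grey bands. In both lines the same wide gap of low members lies in the fourth band, and in LN95(KO) the middle of the gap is empty.

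The whole 13-member row held 17 and 15 reads in LNCaP95 and 16 and 8 in LN95(KO), and all those of LN95(KO) lay on its last member, ZNF724 (4 and 3 against 16 and 8). The following division of the row was made after the values were seen. The other 12 members from ZNF100 to ZNF730 (chr19:21905573-23330023) summed to 13 and 12 reads in LNCaP95 but to 0 and 0 after the knockout, with exact Poisson intervals of 6.92 to 22.2 and 6.20 to 21.0 against an upper bound of 3.69 per knockout library. Against a floor of 3 reads over the knockout group the ratio was 8.15, with no interval. The division left out the only member of the row with reads in LN95(KO), so the 0 and 0 follow from that choice. The Poisson intervals do not allow for it. ZNF492 gave 8 and 7 of these reads, and 18.4% of its windows match another gene. Members with more reads lie on both sides of the row. Just before the row, ZNF708 fell by 0.73, ZNF493 by 0.72 and ZNF429 by 0.82 on the log2 scale. ZNF708 had 185 and 186 reads against 120 and 98. The first members after the row, ZNF91 and ZNF675, rose by 0.43 and 0.63. The 60 other annotated genes inside the 12-member interval had 5 and 2 reads against 1 and 7.

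The members differed by what their proteins and promoters hold. All 8 called members that rose carry a KRAB box pattern. Of the 7 that fell, ZNF585B and ZNF558 carry it and ZNF536, ZNF580, ZNF358, ZNF524 and ZNF575 do not. Over the 175 tested KRAB members the median log2 fold change was 0.01, with 90 above 0 and 10 called. Over the 31 tested members without it the median was -0.24, with 22 below 0 and 5 called (16.1%), close to the background of 18.0%. The members without KRAB were also richer in G and C, with a median transcript GC content of 60.2% against 42.3%. Within those without KRAB, the 22 with a GC content over 50% had a median of -0.35 and the other 9 a median of -0.02, while the 10 KRAB members over 50% had a median of -0.09. Over all tested genes with a symbol the median of those with a GC content over 50% was -0.03. Position differed too, since only 6 of the 16 members of the falling cluster from ZNF628 to ZNF835 carry a KRAB box pattern. That cluster had a median of -0.42, and the other coding genes tested there had -0.48. KRAB content, base composition and position could not be told apart in these members.

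**Figure D5:**
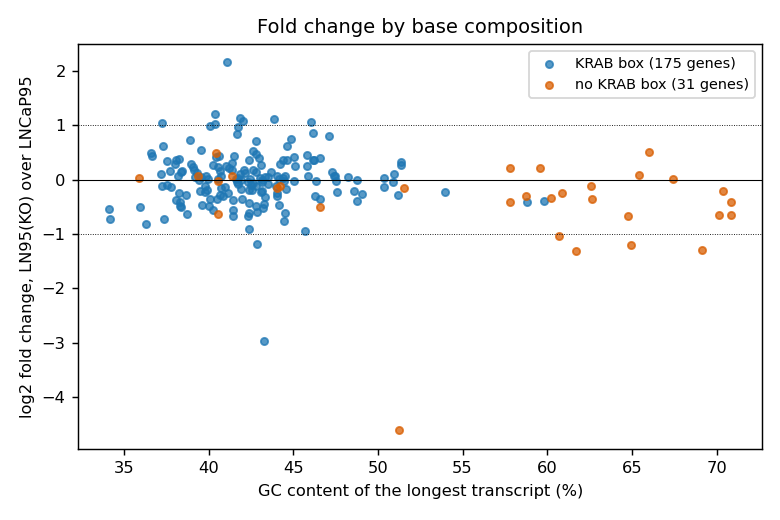
Each point is a tested member, with the GC content of its longest transcript in percent on the horizontal axis and its log2 fold change (LN95(KO) over LNCaP95) on the vertical axis, blue with and orange without a KRAB box pattern. Blue points gather near 42% and scatter evenly about 0, while 22 of the 31 orange points lie below 0, of which 17 have a GC content over 50%.

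Members with enough reads for the test had more CG before their start than those without. The tested share was 60.5% of those with under 10 CG in the 250-base window, 83.8% of those with 10 to 19 and 92.0% of those with 20 or more. The median was 17 CG over tested and 11 over untested members, and in the 13-member row of low genes it was 11. The median log2 fold changes of the 3 classes were 0.04, 0.01 and -0.11. Called were 3 of 23, 8 of 114 and 4 of 69 tested members of these classes. By number of fingers (0 to 6, 7 to 10, 11 to 15 and 16 or more) the medians were -0.06, -0.05, -0.05 and 0.04, and called were 22.2%, 7.02%, 3.66% and 8.16%. The first of these shares is 4 of 18 members, near the 18.0% of all tested genes.

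A list of 23 co-repressor and other chromatin genes was examined. It holds TRIM28, SETDB1 and the HP1 genes of the KRAB route above, and genes not named in that route, such as SUV39H1 and SUV39H2. Of the 23 genes 21 were tested, and 9 (42.9%) had an adjusted p under 0.05, all of them higher. Of all tested genes 29.8% were higher at this limit, and 59.8% passed it in either direction. Both of the 2 called genes (9.52%) were higher, against 8.86% of all tested genes called higher and 18.0% called in either direction. SUV39H1, which trimethylates histone H3 lysine 9, had 129 and 159 reads against 368 and 431 (log2 fold change 1.50, SE 0.12; edgeR adjusted p = 8.58e-09). SUV39H2, its relative, had 197 and 189 against 367 and 485 (1.17, SE 0.12), and 0.99 without replicate 4. TRIM28, the common KRAB partner, which lies on chromosome 19 beyond the last cluster, had 3302 and 3220 against 3823 and 4265 (0.34, SE 0.05). SETDB1 had 695 and 715 against 721 and 647 (-0.01, 95% interval within 2-fold), and its groups overlapped. The list had a median of 0.12, against -0.01 over all tested genes. DAXX had 2 to 5 reads per library and EHMT2 is listed at 0 in all 4, and neither was tested. Both lie on chromosome 6 between 29 and 34 Mb, where 119 of 182 protein-coding genes (65.4%) had no read in any library, against 17.2% on the rest of that chromosome, so these counts give no measure of the level of either gene. The cause was not tested.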

How the data were processed

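The files were deposited by the authors as unscaled read counts, 1 value per gene. Alignment to hg19 used HISAT2 2.1.0 and counting used HTSeq, per the submitters' processing notes and the study's methods, on GENCODE release 29, without strand per the file names, 1 library per file. Reads that align more than once or lie on more than 1 gene are left out by HTSeq, so overlapping genes and close copies can lose reads. The 5 summary lines of each file name no gene, held 23.8% to 27.5% of entries and were left out. A combined table was identical to these files and was not used.

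Positions, exons and symbols came from GENCODE release 44 on GRCh37, with 59899 of 60880 IDs matched. Depth sets the precision: 3 reads correspond to 0.163 to 0.169 CPM, the median SE of a tested member's log2 fold change was 0.12, and intervals on reads cover counting error only. edgeR 4.0.16 (R 4.3.3) fitted all genes that passed filterByExpr with TMM factors and the robust quasi-likelihood test. CPM use TMM-scaled library sizes. The 2-fold and 0.05 limits are those of the study. Intervals of log2 fold changes are the value ± 1.96 SE. With 2 libraries against 2, an exact permutation test cannot give a two-sided p under 0.333, so no single-value test was used. In a test on simulated data for this comparison, with 15260 genes and 200 changed 4-fold, 200 were recovered and 4 others were called. The changed genes were drawn from those with more reads, and all other genes were left unchanged. The simulation therefore does not measure how well changes near 2-fold or in genes with few reads are called.

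KRAB and C2H2 patterns were searched in translations of the GENCODE coding exons in place of RefSeq proteins. Promoter alignments used Biopython. Transcript windows of 100 bases were compared across all GENCODE transcripts.

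Named in full were the 10 largest rises and falls among called members with a mean of at least 50 reads, in each cluster the member called with the lowest adjusted p, members with a known role, TRIM28, SETDB1, called co-repressors and UGT2B17. The members, lists and rules were chosen with earlier results of these data known. PECAM1, a listed endothelial marker, was not matched. Alternatives were other scaling factors, DESeq2 1.42.0, no filter, a test against 2-fold (glmTreat), each library left out, and other choices of pairs, gaps and features.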

Additional observations from a re-analysis of the deposited data

Results flagged for a closer look

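Reads outside the gene counts differed between the groups. The share of entries that was not aligned was above both LNCaP95 libraries in both LN95(KO) libraries, the lower of which had 7.707%. The share of aligned entries that aligned more than once was also higher in both LN95(KO) libraries, at 4.116% or more, against 3.94% and 3.96% in LNCaP95. Which genes these reads came from is not recorded in the counts, and their part in the results on copied zinc finger genes was not tested.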

How the results depend on the processing

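No paired analysis was possible because LNCaP95 is numbered 1 and 2 and LN95(KO) 3 and 4. The number of called members was 14 to 18 under other scalings, DESeq2, no filter and with a library left out, 88 with no criterion on fold and 5 in the test against 2-fold (1 higher, 4 lower). With library totals 16 were called, 10 higher and 6 lower, which moved the share of higher calls. The median log2 fold change of the members was 0.040 with library totals and -0.054 with upper quartile factors, so its sign is set by the scaling. The share of neighbours with the same sign was 59.0% with library totals. The r of neighbours was 0.35 at most 100 kb apart, 0.31 inside a cluster, 0.27 without ZNF536, 0.30 in pairs of KRAB members, 0.28 on log2 of mean CPM with a pseudocount of 1, and 0.17 to 0.24 with a library left out. The median of members without KRAB was -0.19 with library totals, -0.30 to -0.18 with a library left out, -0.024 at a GC content of 50% or less and -0.35 above. These last alternatives on KRAB, ZNF536 and clusters were chosen after seeing the data. ZNF382 turned to -0.024 with upper quartile factors and ran from -0.056 to 0.089 with a library left out. Joining clusters over gaps up to 1 Mb gave 9. For the values that moved, the cause was not tested. The 43 members under the read limit gave no test at this depth.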
